A study of Rattus norvegicus with 24 samples.

Results

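On rat CpG island arrays, 6398 of 89403 autosomal probes had a lower ratio of methyl-CpG-bound DNA to total DNA in every one of 21 mammary carcinomas than in any of 3 normal mammary glands. They were chosen on these same values: the log2 ratio of the Cy5 over the Cy3 signal was centered on the median of its array, and a probe on chromosomes 1 to 20 was a member when its highest tumor lay below its lowest gland. The difference between tumors and glands at the members is therefore fixed by the choice and is given as a description, with no test. The members made up 7.16% of the autosomal probes, and the mirror rule, lower in every gland than in any tumor, took 2667 probes (2.98%). By the same rule 0 of 2494 X-chromosome probes were lower in all tumors. The number of autosomal probes taken depended on the processing. It was 10340 without centering and 4129 with another background correction (normexp), 2961 of them among the 6398.

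Each sample was hybridized to its own array, with the DNA pulled down by a methyl-CpG binding domain protein labelled in Cy5 and its total DNA, not enriched, in Cy3. All samples came from female Sprague-Dawley rats, which from 9 weeks of age received a diet with 23.5% corn oil. The IR-3W carcinomas (n = 7) arose after whole-body gamma irradiation with 2 Gy at 3 weeks of age, before puberty, and the IR-7W carcinomas (n = 7) after 2 Gy at 7 weeks, after puberty. The spontaneous carcinomas (n = 7) and the normal mammary glands (NMG, n = 3) came from rats that had not been irradiated. IR-3W 6 and 7 were tumors of the same rat, and so were IR-7W 1 and 2. The files used here do not pair probes with genes, so the members are given by their place on the rn4 assembly, with no gene names, and the tissue labels were not checked against marker genes.

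CpG islands are stretches rich in the CpG dinucleotide that often lie at gene starts. Most are free of methylation in normal tissue, while those of the inactive X chromosome of females are largely methylated. A methyl-CpG binding domain captures a DNA fragment the better the more methylated CpGs it carries, so a low ratio marks a probe whose fragments were seldom captured, and the ratio is an average over all cells of the tissue piece. In such DNA, a lower methylation in every cell and a smaller share of cells that carry methylated DNA cannot be told apart.

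The glands were scanned on the same day as a single tumor, Spontaneous 3, while the other 20 tumors were scanned on other days, and tissue could barely be separated from the day of the scan. Before centering, the median log2 ratio of an array lay between -0.02 and 0.10 in the glands and between -0.27 and -0.01 in the tumors, and centering removed this offset. The share of autosomal probes with a Cy5 signal well above background was 86.3% to 95.5% in the glands and 72.4% to 93.9% in the tumors. The part of scan day and of Cy5 signal in the results was not tested. The median ratio of the X-chromosome probes was 0.21 in 1 IR-7W tumor and 1.92 to 4.91 in the other tumors. Correlations between pairs of arrays ranged from 0.755 to 0.956, and the tumors of the same rat correlated at 0.884 (IR-3W 6 and 7) and 0.906 (IR-7W 1 and 2).

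The members did not lie among the probes of highest ratio in the gland. Their mean level over the 3 glands had a median of 0.49 and quartiles of 0.19 and 0.81, on the centered log2 scale on which the median of each array is 0. The X-chromosome probes of the same glands, which serve here as a gauge of islands methylated on the inactive X, had a median of 2.66 and a lower quartile of 2.20. Only 5 members (0.0781%) reached that lower quartile, against 9700 (10.8%) of the autosomal probes. Most members thus sat in the upper part of the bulk of the array, below its high-ratio mode, and "lower in all tumors" is used for them below rather than loss of dense methylation.

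In the tumors the mean levels of the members had a median of -0.34 and quartiles of -0.60 and -0.08. At 4399 members (68.8%) the mean went from above the array median in the glands to below it in the tumors. At 1195 it was above the array median in both, and at 804 below it in both. The difference between the tumor mean and the gland mean had a median of -0.82 and ranged from -2.0 to -0.23, and it was below -1 at 1683 members. Over all autosomal probes the median difference was 0.06, a value that centering each array on its own median keeps small. Without centering, the medians were -1.01 at the members and -0.13 over all autosomal probes.

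**Figure D1:**
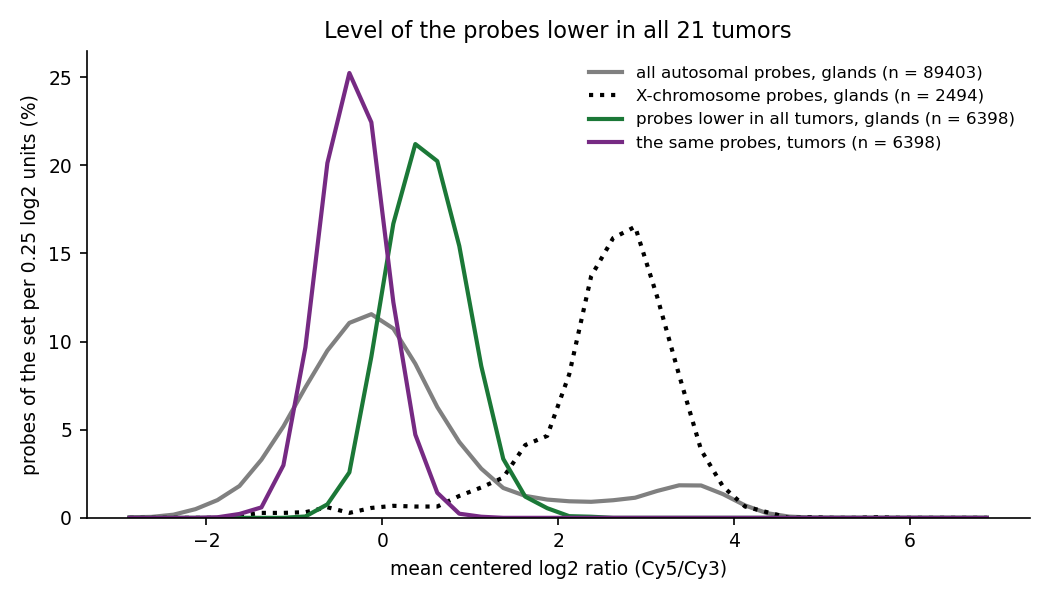
Percentage of probes (vertical axis, per 0.25 log2 units) at each mean centered log2 ratio (horizontal axis), for all autosomal probes and X-chromosome probes in the 3 glands, and for the 6398 probes lower in all tumors in the glands and in the 21 tumors. The 6398 probes shift from a median of 0.49 in the glands to -0.34 in the tumors, and both of their curves lie to the left of the X-chromosome probes, whose median was 2.66.

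The share of probes that were lower in all tumors depended on the level in the gland. It was 0 of 10101 probes with a gland mean between -2 and -1 and 2.28% between -1 and 0. It rose to 13.9% between 0 and 0.5 and 24.1% between 0.5 and 1, and was 19.1% between 1 and 1.5. Above that it fell to 5.49% between 1.5 and 2 and to 0.28% between 2 and 3, and none of 6800 probes above 3 was a member. At these high levels IR-3W 1, with a median X-chromosome ratio of 4.91, was the highest tumor at 6754 of the 6800 probes above 3 and at 2355 of the 2494 X-chromosome probes. Without this tumor, a setting chosen after seeing the data, the rule still took 0 of the 6800 and 0 of the X-chromosome probes. Between 2 and 3 it took 14 in place of 10. The lowest gland limits these counts too. The median X-chromosome ratio was 2.81, 2.20 and 3.00 in NMG 1, 2 and 3, and its median over the 21 tumors was 2.74. The part of the range of single arrays in these counts was not tested. The gland level is itself part of the rule, so these shares describe where the members lie. Probes higher in all tumors had a median gland mean of -0.45 and their share was 8.05% below -2, 4.70% between -2 and -1 and 4.13% between -1 and 0.

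The 10 members with a gland mean over 2 are the nearest to the high-ratio mode, of 10366 autosomal probes with such a mean. The highest was A_45_P12309902 at chr20:46669364-46669408, with centered log2 ratios of 2.05, 2.54 and 2.70 in NMG 1, 2 and 3. The lowest, median and highest tumor were 0.14, 0.54 and 1.5 in IR-3W, 0.27, 0.43 and 1.41 in IR-7W, and -0.24, -0.04 and 1.62 among the spontaneous tumors. In each tumor group the highest tumor stayed more than 0.4 below the lowest gland, at a level well above the array median. The others lay at chr11:55843836-55843880, chr8:106034017-106034061, chr2:116693313-116693357, chr3:141861315-141861359, chr8:67952118-67952162, chr2:21638761-21638805, chr4:135720604-135720648, chr8:75152836-75152880 and chr2:35031633-35031677. Over all 10 the tumor mean lay between 0.52 and 1.00, so that none fell to the array median.

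Every array separated on the median over the members, as the rule requires. The medians were 0.35, 0.58 and 0.56 in NMG 1, 2 and 3. In the tumors they were -0.52 to -0.01 (median -0.27) in IR-3W, -0.42 to -0.06 (median -0.29) in IR-7W and -0.61 to -0.16 (median -0.43) in the spontaneous tumors. Ranked among all autosomal probes of the array, the median member lay at percentiles 65.0 to 75.1 in the glands and at percentiles 25.7 to 51.1 in the tumors. NMG 1 was the gland nearest to the tumors, and held the lowest gland value at 4783 of the 6398 members. Without it the rule took 9601 probes, 1.5 times as many.

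The limit on the tumor side came from few tumors. The highest tumor value was that of IR-3W 6 at 1382 members and of IR-3W 7, from the same rat, at 964. It was that of IR-7W 6 at 774, Spontaneous 6 at 660, IR-3W 1 at 620 and Spontaneous 3 at 520. With 1 tumor per rat, 6817 probes passed the rule. A further 3015 autosomal probes had 20 of 21 tumors below all glands, and the exception was IR-3W 1 at 512 of them, IR-3W 6 at 345, IR-3W 7 at 333, Spontaneous 3 at 301 and Spontaneous 6 at 283. At the other end, Spontaneous 2 was the exception at 18 probes. Spontaneous 3, the tumor scanned on the day of the glands, had a median difference of -0.72 from the gland mean over the members, and of -0.80 from NMG 2 on its own slide.

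**Figure D2:**
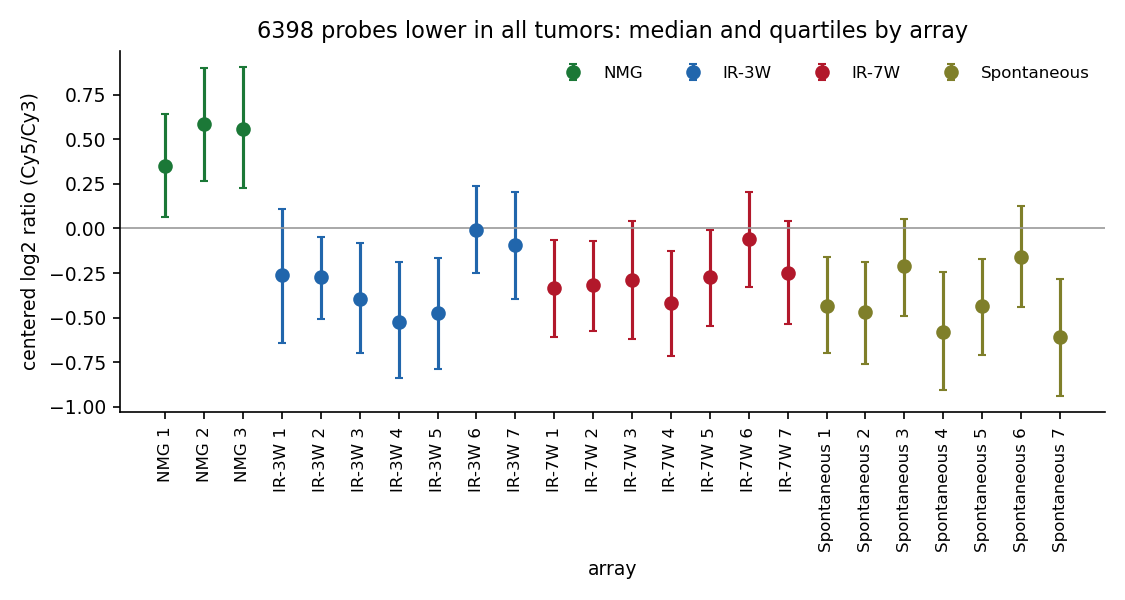
Centered log2 ratio (vertical axis) of the 6398 probes lower in all tumors on each of the 24 arrays (horizontal axis). Points are medians over the probes and bars run from the lower to the upper quartile. The glands lie at 0.35 to 0.58 and the tumors at -0.61 to -0.01, with IR-3W 6 and 7, IR-7W 6 and Spontaneous 6 the highest of their groups.

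The separate signals show which channel carried the lower ratio. The centered Cy5 signal, of the enriched DNA, was lower in the tumor mean at all 6398 members, with a median difference of -0.88. The centered Cy3 signal, of unenriched DNA, had a median difference of -0.05 and was lower at 4300 members and higher at 2098. The Cy5 difference was the larger at 6389 members. In Cy3 the tumors lay below all glands at 5 members and above all glands at 0. In Cy5 alone they lay below all glands at 2710. Both channels enter the ratio that chose the members, and these counts were not made over all autosomal probes. Over all autosomal probes the Cy5 difference had a median of 0.09 and quartiles of -0.33 and 0.50. The Cy3 difference there had a median of 0.005 and quartiles of -0.10 and 0.10. These are means over 21 tumors relative to the array median, and gains or losses of DNA in single tumors were not tested.

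The low Cy5 signals were mostly measurable. The Cy5 signal was well above background in all 3 glands at 6394 members and on all 24 arrays at 5352, and at 1 member it was not well above background in any tumor. The Cy3 signal was well above background on all 24 arrays at 6377 members. No member had a saturated spot, and 5 had an outlier spot on some array. At the other 1046 members the tumor ratio rests in part on Cy5 signals near background.

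**Figure D3:**
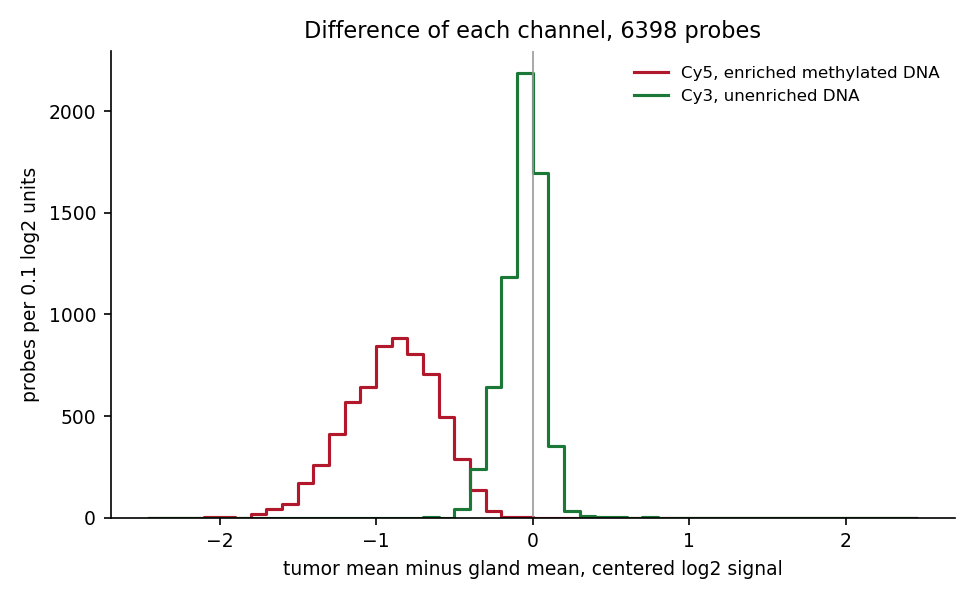
Number of probes (vertical axis, per 0.1 log2 units) at each difference between the tumor mean and the gland mean of the centered log2 signal (horizontal axis), for Cy5 (enriched methylated DNA) and Cy3 (unenriched DNA) of the 6398 probes lower in all tumors. The Cy5 differences center on -0.88 and the Cy3 differences on -0.05.

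The largest mean difference was at A_45_P01912608, chr2:147753229-147753275. Its centered log2 ratios in NMG 1, 2 and 3 were 0.39, 0.91 and 0.95. The lowest, median and highest tumor were -2.42, -1.42 and -0.14 in IR-3W, -2.46, -0.97 and -0.36 in IR-7W, and -2.34, -1.48 and -0.41 among the spontaneous tumors. The tumors spread over more than 2 log2 units at this probe, and the Cy5 signal was well above background in only 6 of the 21 tumors, so the low values are near the floor of the measurement. With normexp background correction the difference there was -0.52 in place of -2.0, while at A_45_P12309902 it was -1.71 in place of -1.91, so the rank as the largest depends on the background correction. At chr1:207206587-207206631 the glands had 1.80, 1.51 and 1.71 (mean difference -1.85). All tumors there were at or below 0.51 except IR-3W 3 at 1.34.

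The gap between the lowest gland and the highest tumor is a stricter measure of separation than the mean. It had a median of 0.17 over the members, and was at least 0.5 at 257 of them. The widest gap, 0.83, was at A_45_P20547371, chr7:1389779-1389823, with 0.81, 0.86 and 0.96 in the glands. The tumors were -0.28, -0.12 and -0.02 (lowest, median and highest) in IR-3W, -0.90, -0.35 and -0.05 in IR-7W, and -1.45, -0.58 and -0.08 in the spontaneous group. The glands were tight at this probe, and each tumor group ended just below the array median. Its mean difference was -1.26, and -0.49 with normexp. At chr20:25320814-25320858 (gap 0.81) the glands had 1.66, 1.87 and 1.76, and the tumors ran from -0.52 to 0.85. At chr10:77294678-77294722 (gap 0.75) the glands agreed within 0.06, at 1.53, 1.53 and 1.48, and the tumors ran from -0.51 to 0.73. The other 7 of the 10 widest gaps, 0.74 to 0.78, lay at chr7:138724062-138724106, chr11:55843836-55843880, chr18:67281383-67281427, chr8:62390002-62390046, chr6:23990122-23990166, chr4:56086572-56086616 and chr4:83003202-83003246.

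Of the 10 largest mean differences, the remaining 7 below the first 3 lay between -1.78 and -1.66. They were at chr18:73179916-73179960, chr8:76629202-76629249, chr4:55059007-55059054, chr16:82719294-82719338, chr8:106034017-106034061, chr10:4361669-4361713 and chr10:72467481-72467525. With normexp, A_45_P06776390 (chr8:76629202-76629249) went from -1.77 to -0.67 and A_45_P03548882 (chr4:55059007-55059054) from -1.72 to -0.86. At 9 of the 10 the Cy3 difference was between -0.26 and 0.09. The exception was chr10:4361669-4361713, where the tumor mean of Cy3 was higher by 0.72 and the glands were far apart, at 0.63, 1.05 and 2.50. The ratio at this probe thus differed in both channels.

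Membership has a sharp border. The members just inside it, at chr16:60108696-60108740, chr13:48286016-48286060 and chr6:108814684-108814730, had gaps of 1.4e-05, 5.93e-05 and 0.000115. The probes just outside, at chr10:98965755-98965799, chr11:32044739-32044783 and chr2:32685420-32685464, had gaps of -1.59e-05, -2.16e-05 and -2.71e-05, the highest tumor being above the lowest gland. The mean differences of the first 3 were -0.57, -0.51 and -0.59, and those of the second 3 were -0.82, -1.30 and -0.77. The probes just outside had mean differences as large as a typical member, since a single gland or tumor decides the rule.

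Neighboring members formed short runs. With probes at most 1000 bp apart joined, the members fell into 3859 runs, of which 2267 held 1 member, 967 held 2 and 407 held 3, and 145, 45, 25 and 3 runs held 4, 5, 6 and 7. In all 4131 members (64.6%) lay in a run with another member. The whole array has 13856 such runs of probes on the autosomes, each covering an island or a cluster of islands. A member was present in 3822 of these (27.6%). Of the 13509 runs with at least 2 probes, members were no fewer than the other probes in 415, and all probes were members in 17. Neighboring probes can be reached by the same sheared DNA fragments, so members of a run are not independent measurements.

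The 3 runs with 7 members were at chr1:265882268-265883414, chr8:115653447-115654203 and chr5:142721217-142722013. In the first, the mean over the members was 0.69, 1.03 and 1.20 in NMG 1, 2 and 3. Its tumors were -0.29, -0.03 and 0.39 (lowest, median and highest) in IR-3W, -0.13, -0.08 and 0.33 in IR-7W and -0.38, -0.23 and 0.14 among the spontaneous tumors. The lower ratios there covered 1147 bp and 7 of 11 probes of the run. Of the 4 other probes 3 also had a lower mean in the tumors, and the last, at one end, was higher by 1.25. Such edges are visible in the profiles of the runs.

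In the second, on chromosome 8, the member mean was 0.38, 0.47 and 0.58 in the glands and -0.96 to -0.03 in the tumors, over 757 bp and 7 of 17 probes. In the third, on chromosome 5, it was 0.48, 0.72 and 0.83 in the glands and -0.47 to 0.18 in the tumors, over 797 bp and 7 of 11 probes. In the second run the members adjoined each other without a break, and in the third 1 other probe lay between them.

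The next 5 runs held 6 members each. They were at chr8:73725546-73726510, chr16:82718589-82719632, chr8:56997117-56997520, chr10:4248991-4249777 and chr2:35031343-35032079, with mean differences of -1.09, -1.07, -1.06, -1.06 and -1.05. The run on chromosome 2 was the only 1 of the 8 in which every probe was a member, 6 of 6 over 737 bp. Its member mean was 0.79, 1.22 and 1.09 in the glands and -0.49 to 0.40 in the tumors, with differences of -1.48 to -0.60 at single probes. On chromosome 8 at 73725546, by contrast, only 1 of the 7 other probes was lower, and another was higher in the tumors by 1.39.

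**Figure D4:**
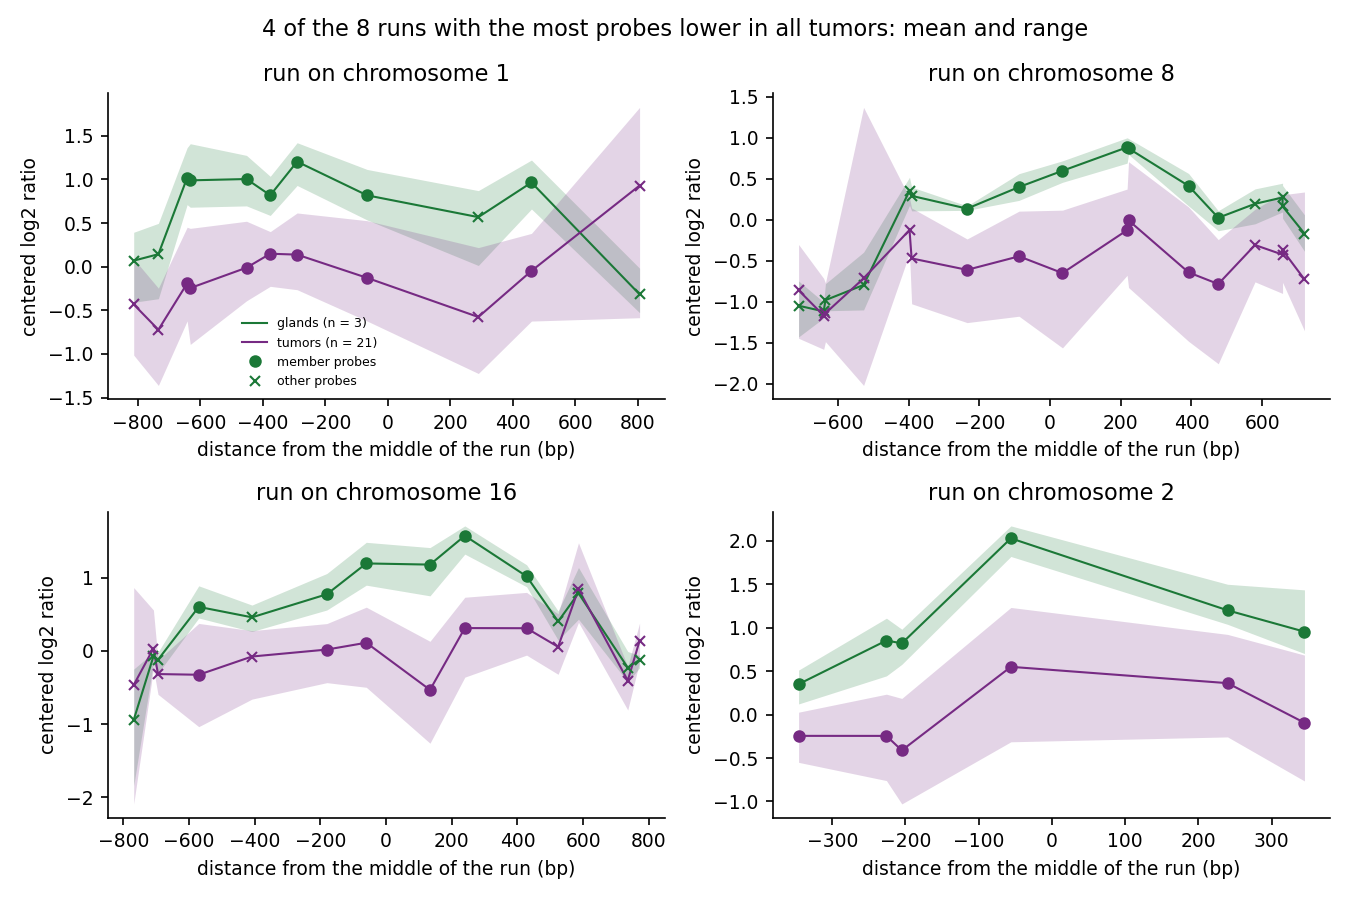
Centered log2 ratio (vertical axis) along 4 of the 8 runs with the most probes lower in all tumors, against the distance from the middle of the run in bp (horizontal axis). Lines join the means of the 3 glands and of the 21 tumors, bands span the lowest to the highest sample, dots mark the members and crosses the other probes of the run. The groups part in the middle of each run, and at one end or both ends of the runs on chromosomes 1, 8 and 16 they meet or cross.

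The other probes of these runs shared the direction in part. Over all 22917 autosomal probes that were no members but lay in a run with one, the median difference was -0.06, and 54.6% had a lower mean in the tumors. Among 60088 probes of runs without a member it was 0.16, and 35.2% were lower. The runs were chosen by their members, so this is a description of their surroundings. Members and probes higher in all tumors occurred together in 397 runs, which are 10.4% of the runs with a member and 21.3% of the runs with a higher probe. Over all 13856 runs, 1863 held a higher probe and 3822 a member.

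The members held a marked place within the runs. Their median distance to the nearer end of the run was 246 bp, against 105 bp over all autosomal probes and 69 bp among the probes higher in all tumors. A probe at the very end of its run was a member in 3.01% of cases, one 300 to 399 bp inside in 16.3%, and one at least 1000 bp inside in 3.60%. The last class lies deep in long clusters, and the share was 4.06% in runs of 21 or more probes and 6.47% to 7.84% in runs of fewer than 11. The members thus peaked some way inside the ends of runs and were fewer on both sides of that.

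Probe length, which the designers of such arrays vary to even out melting temperature, also differed. The members had 45 bases, the shortest length, in 87.2% of cases, against 62.6% of all autosomal probes and 65.7% of those higher in all tumors. Of the probes of 45 bases 9.98% were members, and of those of 60 bases 0.0358%. Within the probes of 45 bases alone the pattern of place remained, with 5.52% at the run end and 19.3% at 300 to 399 bp. The level in the glands followed place as well, with a median gland mean among these probes of 0.03 at the run end, 0.37 at 300 to 399 bp and 0.08 at 1000 bp or more. Length went with the level in the glands, since the median gland mean was 0.17 at 45 bases and -0.76 at 60 bases.

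Brightness in unenriched DNA followed the same order. Of the tenth of the autosomal probes with the lowest Cy3 signal in the glands 0.0559% were members, and of the tenth with the highest 17.1%. Among the probes of 45 bases alone the shares ran from 3.14% in the dimmest of 5 equal classes to 16.9% in the brightest. A rule that asks for no overlap favors probes with little spread. The SD over the 21 tumors had a median of 0.27 at the members and 0.43 over the autosomal probes. The same tumor values chose the members, so this SD only describes them. The parts that length, brightness and place have in the membership were not told apart.

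**Figure D5:**
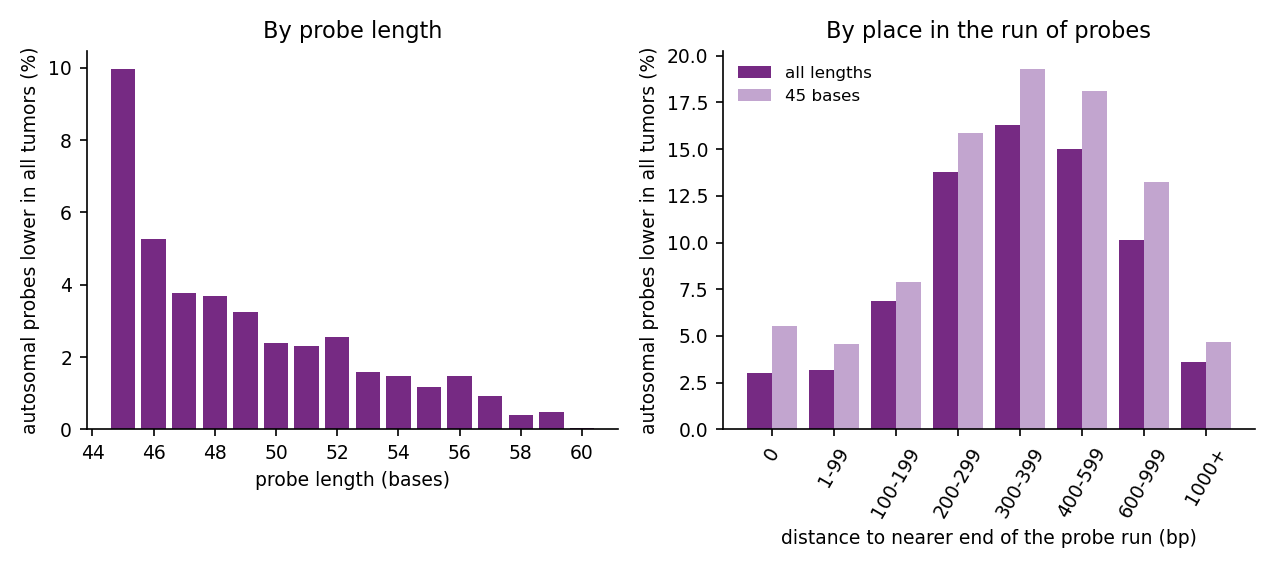
Percentage of autosomal probes that were lower in all tumors (vertical axes), by probe length in bases (left) and by distance to the nearer end of the run of probes in bp (right), for probes of all lengths and for those of 45 bases. The share falls from 9.98% at 45 bases to 0.0358% at 60 bases and peaks at 16.3% (all lengths) and 19.3% (45 bases) at 300 to 399 bp.

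All autosomes held members. Their share was lowest on chromosome 20 (5.65%), chromosome 12 (5.84%) and chromosome 7 (6.07%). It was highest on chromosome 13 (9.60%), chromosome 11 (8.09%) and chromosome 17 (8.04%). Chromosome 1, with the most probes, had 713 members of 11243 (6.34%).

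The members were also compared among the carcinomas, for each pair of tumor groups with limma over all 93024 probes and Benjamini-Hochberg adjustment. Of the 6398 members 0 had an adjusted p under 0.05 in any of the 3 comparisons, and over all probes 0, 8 and 0 did (0%, 0.0086% and 0%) for IR-7W minus IR-3W, Spontaneous minus IR-3W and Spontaneous minus IR-7W. The smallest adjusted p among the members was 0.417, 0.352 and 0.912 (limma). The methods' t-test, run here on the centered log2 ratios rather than the study's LogOdds and with no minimum difference, called 0 members after adjustment as well, where 0%, 0.00107% and 0% of all probes passed. The rule used the same tumor values, since no tumor may exceed the lowest gland at a member, and its part in these counts was not tested. The counts therefore do not answer whether age at irradiation or origin of the tumor bears on the members.

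At an unadjusted p under 0.05 (limma), 34 members (0.531%) differed between IR-7W and IR-3W, with IR-7W higher at 12 and lower at 22, where 6.49% of all probes passed, 4.1% higher and 2.39% lower. Between the spontaneous and the IR-3W tumors 431 members (6.74%) passed, 424 of them lower in the spontaneous tumors, where 10.2% of all probes passed, 4.48% higher and 5.75% lower. Between the spontaneous and the IR-7W tumors 345 members (5.39%) passed, 338 of them lower in the spontaneous tumors, against 3.93% of all probes, 1.54% higher and 2.38% lower. On the same log2 ratios, the methods' t-test gave 95, 623 and 529 members at the same unadjusted threshold, where 6.05%, 9.24% and 4.27% of all probes passed. The tumor values that chose the members enter these counts, so no order of the groups is read from them.

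Relative to the glands, the median difference over the members was -0.79 for the IR-3W, -0.77 for the IR-7W and -0.90 for the spontaneous tumors. These 3 values share the glands as control. The median over the members differed by 0.006 for IR-7W minus IR-3W, by -0.125 for Spontaneous minus IR-3W and by -0.131 for Spontaneous minus IR-7W, where the medians over all autosomal probes were -0.019, -0.044 and -0.050. The array medians of the groups overlap widely, with SDs over 7 tumors of 0.19, 0.11 and 0.17 for IR-3W, IR-7W and Spontaneous. With the scan day as a block the last 2 medians over the members were -0.05 and -0.11. In that fit 34 and 140 members had an unadjusted p under 0.05 (limma), where 7184 and 3063 of all 93024 probes did. With the slide as a block these 2 medians over the members were 0.32 and -0.02. Each of these slide values rests on 1 shared slide with 1 array of either group, which for Spontaneous minus IR-3W were Spontaneous 6 and IR-3W 5.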

How the data were processed

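Methylation was measured in 24 samples (3 glands, 21 tumors), 1 dual-channel array each. The authors deposited scanner intensity values from Agilent Feature Extraction 10.7.3.1, background-subtracted and linearly dye-normalized, on the rn4 assembly. For 91897 probes the authors also deposited log2 ratios, with the direction and scale of the scanner ratios, which were used as an alternative. Processed Cy5 was divided by processed Cy3, and the log2 value was set relative to the median of all non-control probes on its array, and outlier spots were left out of fits. Tumor groups were compared with limma 3.58.1 in R 4.3.3 over all 93024 probes; p-values measure the spread between tumors, some of which share a rat. On simulated data with 200 of 93024 probes changed by 4 SD, limma recovered 186, 190 and 184. It made 10, 11 and 15 false calls, in the order of comparisons above. The simulated noise was normal and independent between tumors, without shared rats, slides or scan days, and recovery of smaller changes was not tested. Python 3.11.15, numpy 2.4.6, pandas 2.3.3 and scipy 1.17.1 were used. The members and all lists were chosen with earlier results of these data known. Named are the 8 runs with most members, the 10 members with the largest difference and the 10 with the widest gap, and 3 on each side of the border; members with a gland mean over 2 were added after their values were seen. Gene lists were not applied, since gene annotation of the probes was not used here. The number of arrays limits precision. Alternatives were other centering and scaling, normexp with an offset of 50, probe filters, blocks, 1 tumor per rat and each array left out.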

Additional observations from a re-analysis of the deposited data

Results flagged for a closer look

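In groups of 7 tumors, 123 sets of values of a measure, probe or run were searched for a single distant tumor with Dixon's ratio (critical value 0.568). Of these 5 passed, where chance gives about 1 in 20. IR-7W 6 had its median member at percentile 48.6 of its autosomal probes, where the other tumors of IR-7W lay at 34.7 to 40.6. Spontaneous 6 was high at chr20:46669364-46669408, with 1.62 against -0.24 to 0.44 in the other spontaneous tumors, and at chr10:77294678-77294722, with 0.73 against -0.51 to -0.05. IR-3W 3 was high at chr1:207206587-207206631, with 1.34 against -0.53 to 0.16. Spontaneous 3 was high in the run at chr8:73725546-73726510, with a mean of -0.36 against -0.93 to -0.72. All 5 lie towards the glands, and all but that of IR-7W 6 concern single probes or 1 run. The sets share tumors and rest on values the rule used, so nothing is read from this direction.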

How the results depend on the processing

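The number of probes lower in all tumors stayed within 1.5 times of 6398 with autosomal centering, scaling by the median absolute deviation, quantile normalization, the series matrix, filters on background and outliers, and 1 tumor per rat. It was 10340 without centering, 4129 with normexp (2961 of them among the 6398), and 257 with a gap of at least 0.5. It was 30610 with only the arrays of the shared scan day and 40035 with only those of the shared slide, which leave 1 tumor to compare, so that fewer samples had to agree. Leaving out 1 array at a time gave 6416 to 9601, the highest without NMG 1. The median difference of the members was -1.01 without centering, -0.58 with normexp and -0.89 to -0.78 with each array left out, and the cause of the normexp values was not tested. Without centering, the median of all autosomal probes moved from 0.06 to -0.13. Quantile normalization, with a median of -0.97, stayed within 1 SD of the array medians of the tumors. Of 810 values of the difference at 27 named members under alternatives, 22 moved by over 1 SD of the tumors, 9 of them with normexp. The rule fixes the direction when an array is left out, and with normexp the tumor mean was lower at 6387 of the 6398 members.

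Between tumor groups 0 members passed adjustment under every alternative run, and 0 to 0 with each tumor left out. Over all probes the counts were 0 to 82 for IR-7W minus IR-3W, the highest without IR-7W 7, 0 to 73 for Spontaneous minus IR-3W, the highest with the scan day block, and 0 under each setting for Spontaneous minus IR-7W. Replicate numbers do not pair the samples (correlations of same-numbered deviations -0.22 to 0.52). With the replicate block 0 members passed in each comparison. In that fit 33, 338 and 422 members had an unadjusted p under 0.05 (limma), where 5893, 15828 and 4232 of all 93024 probes did. With each tumor left out the unadjusted counts of members were 19 to 57 for IR-7W minus IR-3W and 213 to 924 for Spontaneous minus IR-3W. They were 147 to 1071 for Spontaneous minus IR-7W, and the latter 2 were highest without Spontaneous 6. In the fits with these lowest and highest counts, 5554 and 5615, 7022 and 16110, and 2833 and 8453 of all 93024 probes passed.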
